A study of Homo sapiens with 3 samples.

Results

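The genes of the WNT secreted signalling proteins and of their cell-surface receptors were examined for open chromatin in human neurons. The group was chosen by name alone: every protein-coding gene whose RefSeq symbol is WNT or FZD followed by a number (with an optional letter for WNT), together with LRP5, LRP6, RYK, ROR1 and ROR2. This gave 34 of 20037 protein-coding genes, of which 19 encode WNT ligands, 10 encode Frizzled receptors and 5 encode co-receptors. The naming rule uses no measured value, and it was set with earlier results of these data known.

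WNT proteins are lipid-modified signals that act over short distances, and they bind Frizzled receptors, which span the membrane several times. With LRP5 or LRP6 as co-receptor, binding blocks the destruction of β-catenin, which then enters the nucleus and activates transcription with TCF and LEF factors. ROR1, ROR2 and RYK are other WNT-binding receptors that act largely without β-catenin, and in the nervous system WNT signals take part in patterning, axon guidance and synapse formation.

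The cells were neurons of the KOLF2.1J line, a reference line of human pluripotent stem cells obtained by reprogramming, differentiated with NGN2, a transcription factor that drives neuronal fate, and taken on day 14. Open chromatin was measured by ATAC-seq, in which the Tn5 transposase cuts and tags accessible DNA. The 3 biological replicates form 1 group with no control, all of 1 cell line, and the authors gave 1 list of accessible regions for them all. The list has no value per replicate, so there is no replicate error and no test between samples, and each statement below describes 1 list.

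The list held 145092 summits in 65234 distinct regions, and each region was represented by its strongest summit, the one with the smallest p-value. Fold enrichment is the authors' own ratio of tags at a summit to the local background, and ranged from 1.29 to 31.9 over the list. The tags at each summit, recovered from that ratio and its p-value, numbered 58 to 3783. Intervals for tags are exact Poisson 95% intervals and cover counting error only, since amplified reads are not independent molecules. Those for shares are Wilson 95% intervals over genes. The genes of a list are neither replicates nor a random sample, so these intervals only describe how few genes a share rests on. A place outside the list is not thereby shown to be closed. Of the marker genes, 7 of 10 for neurons had an accessible end, against 6 of 6 for neural progenitors, 1 of 6 for pluripotent cells and 2 of 6 for astrocytes and oligodendrocytes. The neuronal share, 70% (39.7 to 89.2%), is at the level of all coding genes, 66.7%, so it does not set the neuronal markers apart. An accessible listed start without an accessible outer end was found for TUBB3 and RBFOX3 among the neuronal markers, for DPPA4 among the pluripotent ones and for MBP among the glial ones. The part of progenitor-like chromatin in the values below was not tested.

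RefSeq GRCh38.p14 gave a promoter sequence, from 250 bases before to 50 after a start, for 25 of the 34 genes. Those of WNT9A, WNT3, FZD4 and RYK are shown because their strongest summit lay inside the window. Those of WNT3A and WNT5B are shown because neither an end nor a listed start of these genes had a region. Capitals mark the GC box GGGCGG or its complement CCGCCC, a word bound by SP1-type factors, and overlapping copies run together. The windows are WNT9A at chr1:227947883-227948182, WNT3 at chr17:46818643-46818942, FZD4 at chr11:86955346-86955645 and RYK at chr3:134250810-134251109, all on the minus strand, and WNT3A at chr1:228006748-228007047 and WNT5B at chr12:1616806-1617105 on the plus strand. Each is written 5′ to 3′ along its gene.
WNT9A: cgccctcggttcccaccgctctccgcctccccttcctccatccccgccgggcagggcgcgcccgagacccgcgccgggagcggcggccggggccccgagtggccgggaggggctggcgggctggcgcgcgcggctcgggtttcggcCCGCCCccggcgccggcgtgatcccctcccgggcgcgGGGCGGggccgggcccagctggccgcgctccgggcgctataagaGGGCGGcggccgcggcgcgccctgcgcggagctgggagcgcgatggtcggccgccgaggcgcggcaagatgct
WNT3: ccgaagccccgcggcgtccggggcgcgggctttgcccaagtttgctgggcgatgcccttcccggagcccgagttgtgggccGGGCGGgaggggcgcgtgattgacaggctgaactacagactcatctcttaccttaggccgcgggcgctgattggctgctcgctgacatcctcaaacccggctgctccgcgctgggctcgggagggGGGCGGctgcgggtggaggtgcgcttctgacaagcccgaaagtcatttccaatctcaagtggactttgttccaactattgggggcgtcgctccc
FZD4: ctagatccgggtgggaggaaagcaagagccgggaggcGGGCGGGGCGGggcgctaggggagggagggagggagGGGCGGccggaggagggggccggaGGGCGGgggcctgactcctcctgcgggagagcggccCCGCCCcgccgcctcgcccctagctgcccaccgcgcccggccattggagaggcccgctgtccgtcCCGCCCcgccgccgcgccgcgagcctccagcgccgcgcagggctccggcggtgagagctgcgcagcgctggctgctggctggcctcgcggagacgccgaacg
RYK: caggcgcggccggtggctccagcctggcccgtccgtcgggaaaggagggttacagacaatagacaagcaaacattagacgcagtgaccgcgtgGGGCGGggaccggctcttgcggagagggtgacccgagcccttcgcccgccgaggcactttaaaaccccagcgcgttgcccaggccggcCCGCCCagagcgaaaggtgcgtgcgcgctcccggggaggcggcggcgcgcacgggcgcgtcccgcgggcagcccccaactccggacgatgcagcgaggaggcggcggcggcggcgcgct
WNT3A: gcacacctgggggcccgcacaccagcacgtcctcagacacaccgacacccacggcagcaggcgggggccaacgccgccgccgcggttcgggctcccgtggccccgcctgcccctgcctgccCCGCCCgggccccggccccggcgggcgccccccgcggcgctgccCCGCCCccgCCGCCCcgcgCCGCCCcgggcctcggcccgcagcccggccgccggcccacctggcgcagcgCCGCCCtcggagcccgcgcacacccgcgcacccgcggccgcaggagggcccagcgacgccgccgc
WNT5B: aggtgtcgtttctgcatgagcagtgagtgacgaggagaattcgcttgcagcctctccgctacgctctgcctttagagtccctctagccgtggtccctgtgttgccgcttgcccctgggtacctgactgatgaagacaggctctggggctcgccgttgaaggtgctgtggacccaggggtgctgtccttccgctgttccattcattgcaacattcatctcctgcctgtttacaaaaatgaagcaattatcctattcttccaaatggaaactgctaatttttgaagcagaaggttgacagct
The window of WNT3A was the most GC-rich of the 6, at 86% GC with 49 CpG dinucleotides and 5 GC boxes, and no region was listed over it. That of WNT5B had 51.7% GC, 10 CpG and no GC box, so these windows without a region were of opposite composition. FZD4 had 6 GC boxes and 40 CpG, and RYK had 2 and 43.

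Accessible gene ends were more frequent among the receptors than among the ligands. A gene was counted when a region's strongest summit lay within 1 kb of either outer end. This held for 11 of 19 ligands, or 57.9% (36.3 to 76.9%), and for 14 of 15 receptors and co-receptors, or 93.3% (70.2 to 98.8%). The same rule called 66.7% of all protein-coding genes, a share inside the ligands' interval and below that of the receptors. The intervals of both groups overlapped. Over all members the count was 25 of 34, or 73.5% (56.9 to 85.4%), which is near the genome's share. When any of a region's summits was accepted, WNT2 and WNT7B were added, which gave 13 of 19 ligands and 14 of 15 receptors, against 68.8% of all genes. The same 2 genes were added when a region only had to overlap the 1 kb window, a rule that called 70.1% of all genes.

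The groups differed in gene length. The Frizzled genes were short, with a median of 5741 bp, and 7 of the 8 receptor genes of up to 10 kb had an accessible end, against 49.9% of all coding genes of that length. Of the 11 ligand genes of 10 to 50 kb, 6 had one, against 69.8% of all coding genes in that class.

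**Figure D1:**
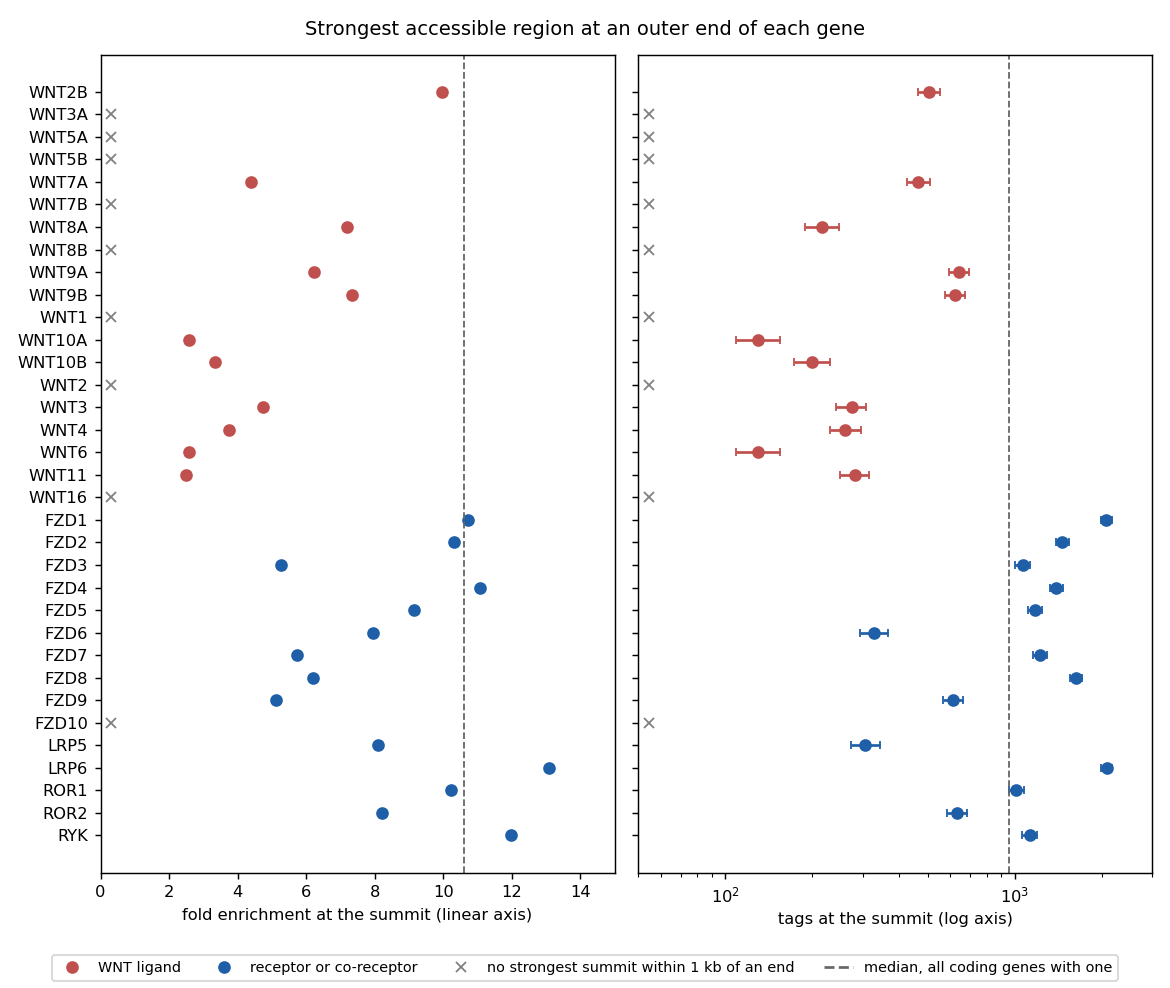
Strongest accessible region at an outer end of each of the 34 genes, as fold enrichment on a linear axis (left) and tags on a log axis with exact Poisson 95% intervals (right). Crosses mark 8 ligands and 1 receptor with no strongest summit within 1 kb, and dashed lines are the medians of all coding genes with an accessible end. All 14 receptors with a value lie above 5 in fold enrichment, and 4 of 11 ligands do.

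The accessible ends of the ligands were also weaker. Their strongest end region had a median fold enrichment of 4.40 (range 2.49 to 9.98) and a median of 273 tags. For the 14 receptors these medians were 8.68 (5.13 to 13.1) and 1152.5 tags, and for all 13367 coding genes with an accessible end they were 10.6 and 954 tags. Both groups lay below the genome in median fold enrichment, while in tags the receptors lay above it. The local background also differed: its median was 59.1 tags at ligand ends, 126.4 at receptor ends and 86.4 over all coding genes. In all, 7 of 11 ligands and none of the receptors had fewer than 300 tags, and 3 ligands and 12 receptors had 500 or more.

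**Figure D2:**
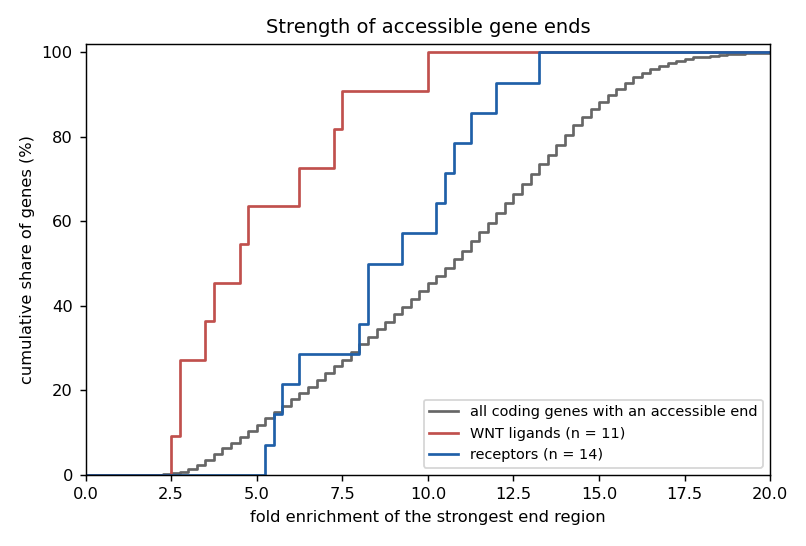
Cumulative share of genes (%) against the fold enrichment of their strongest end region, in steps, for 11 WNT ligands, 14 receptors and all 13367 coding genes with an accessible end (the axis stops at 20, and a few of the last group lie beyond). The ligand line rises first, with its median at 4.40, and the receptor line crosses its median at 8.68, left of the 10.6 of all genes.

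Among the ligands, WNT2B, a signal of retina and gut, had the strongest end, with 506 tags (463 to 552) at fold enrichment 9.98. WNT9B and WNT9A, known from kidney tubules and joints, followed with 622 and 643 tags at 7.33 and 6.24. WNT7A, which acts in synapse formation, had 465 tags (424 to 509) at 4.40 in a region of 2841 bp with 9 summits. These 4 genes had the most tags of any ligand. WNT3, needed for the body axis of the early embryo, had 273 tags (242 to 307) at 4.73. WNT4, which acts in kidney and the female reproductive tract, had 260 at 3.75. WNT8A, a signal of the early embryo, reached 7.18 with 216 tags, over a background of 29.2 tags, the lowest value at any coding end. WNT11, known from convergent extension movements, had 280 tags (248 to 315) at 2.49. WNT10B, known from fat and bone, had a region at each outer end, of 200 tags at 3.34 and 114 tags at 2.70. The order by fold enrichment and the order by tags therefore differed. The end regions of WNT9A, WNT9B and WNT11 also lay within 1 kb of an end of a gene outside the group. So did those of FZD4, FZD6 and the start of FZD8.

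WNT6 and WNT10A, the second of which acts in teeth and hair, lie side by side, and their annotated spans overlap by 118 bp. Both were counted through 1 shared region of 130 tags (109 to 154) at 2.59, at chr2:218873312-218874134. It sits at the far end of WNT6 and upstream of the listed start of WNT10A, which lies 6736 bp inside the span of that gene. Neither listed start had a summit within 1 kb. That of WNT6 was borderline: a stronger region inside the gene, of 419 tags (380 to 461) at 6.89, had its summit 1274 bp downstream of the start. WNT8A and WNT9B were likewise counted at an outer end that lies 6666 bp and 18394 bp from their listed starts.

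Of the 8 ligands with no accessible end, WNT16 and WNT5A had an accessible start inside the gene. WNT16, known from bone, had 206 tags at fold enrichment 4.17, 658 bp downstream of its start. WNT5A, a major signal for β-catenin-independent responses, had 356 tags (320 to 395) at 3.07, 53 bp downstream of a start that lies 17957 bp inside its span. Its other listed start had none within 1 kb. WNT2, known from lung and placenta, is another borderline case: a region of 2080 bp covers its start, with the strongest summit 1303 bp upstream (303 tags, 4.87) and a weaker one 1 bp upstream (228 tags, 3.65). WNT7B, which acts in brain blood vessel growth, had its nearest strongest summit 1591 bp from an end, with 777 tags at 7.46. That is more tags than at any counted ligand end.

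The other 4 ligands were WNT1, WNT3A, WNT5B and WNT8B. WNT1, a signal of the midbrain and hindbrain boundary, had its nearest summit 4.30 kb from an end, at fold enrichment 7.50. WNT3A, needed for the hippocampus, had it at 7.46 kb, at 6.06. WNT5B and WNT8B had theirs at 2.50 and 2.04 kb, at 9.13 and 4.43. Regions were therefore listed within 10 kb of each, none of them at the listed start.

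Among the Frizzled genes, FZD4, the receptor for Norrin in retinal vessels, had the highest fold enrichment, 11.1 with 1396 tags (1324 to 1471). FZD1 had the most tags, 2076 (1988 to 2167) at 10.7. FZD2, altered in a skeletal dysplasia, had 1461 tags at 10.3. FZD5, which acts in eye development, had 1176 tags at 9.16. These 4 ends lie near the genome's median of 10.6 in fold enrichment and above its 954 tags. FZD8 had 1634 tags (1556 to 1715) at 6.19 at its start and a second region of 665 tags at 2.92 beyond its far end. FZD7 had 1222 tags at 5.73 in a region of 3042 bp with 9 summits, and FZD3, which guides axons, had 1067 tags at 5.27. For FZD7, FZD8 and FZD3 the high tag counts stood over local backgrounds of 213, 263 and 202 tags, which lowers their ratio. FZD6, which patterns hair and skin, had 327 tags (293 to 364) at 7.94, and FZD9, a gene of the Williams syndrome region, had 611 at 5.13.

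FZD10 was the 1 receptor without an accessible end. Its nearest summit lay 169.958 kb away, and no distal region fell within 50 kb. Only 273 coding genes, or 1.36%, had no summit nearer.

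All 5 co-receptors had an accessible end. LRP6, the main β-catenin co-receptor in many tissues, had the strongest end of all members, with 2083 tags (1995 to 2174) at fold enrichment 13.1. RYK, a receptor with an inactive kinase domain that acts in axon repulsion, had 1129 tags at 11.97. ROR1 had 1015 at 10.2 and ROR2, a WNT5A receptor altered in Robinow syndrome, had 633 at 8.21. LRP5, known for its effect on bone mass, was the weakest, with 305 tags (272 to 341) at 8.11 at its outer end and 226 tags at 3.83 at its listed start 14179 bp inside.

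A difference in the same direction was present at listed starts, where the strand is known. Of the genes with a promoter entry, 7 of 16 ligands (43.8%, 23.1 to 66.8%) and 9 of 9 receptors (100%, 70.1 to 100%) had a summit within 1 kb of a start, against 71.2% of all coding genes with an entry. Entries were missing for WNT7B, WNT10B, WNT11, FZD2, FZD3, FZD6, FZD7, FZD10 and LRP6, so this comparison leaves out 9 members, 4 of them with more than 1000 tags at an end. It also leaves out FZD10, the 1 receptor without an accessible end. Of the ligands left out, WNT10B and WNT11 had an accessible end and WNT7B had none. The wider gap at listed starts rests in part on these omissions. A region covered 9 of 19 listed ligand starts and 9 of 9 receptor starts, against 65.4% of all listed starts.

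The strongest summits also sat closer to receptor starts. At 8 of the 9 receptor starts the strongest summit fell inside the 300-base window, from 67 bp before the start in ROR2 to 1 bp after it in RYK, and in LRP5 it fell 167 bp after. At the 8 ligand starts with a summit within 1 kb, 2 fell inside, those of WNT9A (111 bp before) and WNT3 (127 bp before). The median distance was 55 bp for receptors, 259 bp for ligands and 91 bp over all coding genes, and 68.4% of all starts with a summit had it inside. With every summit counted, 5 listed ligand starts and 8 receptor starts had one in the window. The 5 include the start of WNT2, which is not among the 8 above. Weaker summits lay 7 bp before the start of WNT16 and 63 bp after that of WNT7A. At each of the 9 receptor starts the strongest summit was also the nearest. The longer ligand distances therefore depend in part on taking the strongest summit. At the starts of WNT9A and WNT3 and the outer start of WNT2B the strongest summit was also the nearest, 111, 127 and 255 bp before. The same held at a start of WNT5A, 53 bp after it. Regions with more than 1 summit were common in both groups, at 7 of these 8 ligand starts and 8 of the 9 receptor starts.

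**Figure D3:**
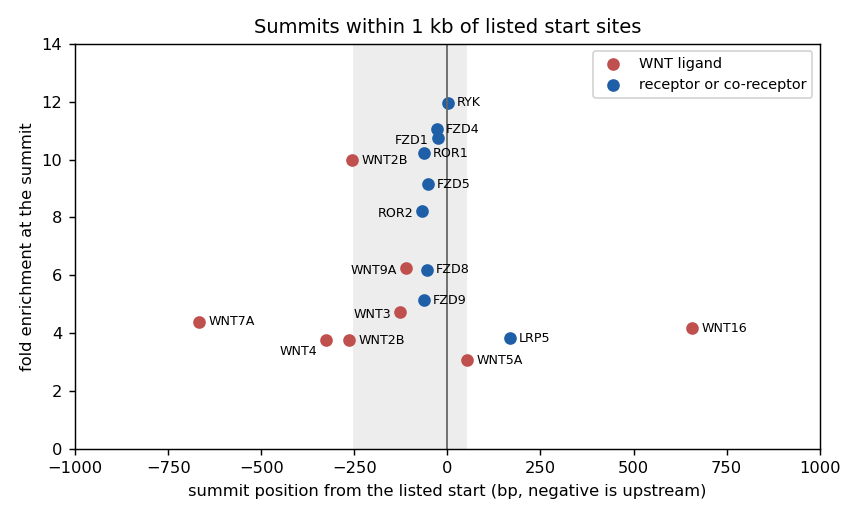
Position of the nearest region's strongest summit from each listed start (bp, negative is upstream) against its fold enrichment, for the 8 ligand and 9 receptor starts with a summit within 1 kb. The grey band is the promoter window. Receptor points, apart from LRP5, sit within 67 bp of the start, and ligand points spread from 666 bp before it in WNT7A to 658 bp after it in WNT16.

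Ligand promoters with and without a summit had similar median base composition, but those poorest in CpG all lacked one. CpG-rich promoters are commonly open in many cell types. Among all promoters with 20 or more CpG in the window, 90.9% had a summit within 1 kb and 91.2% had the start covered by a region. Of the 14 ligand promoters in this class, 7 had a summit within 1 kb and 8 were covered, while all 9 receptor promoters met both. The 6 CpG-rich ligand starts outside any region were those of WNT1, WNT3A, WNT6, WNT9B, WNT10A and one of WNT5A. The 11 ligand promoters without a summit within 1 kb had a median of 72.7% GC and 30 CpG, and the 8 with one had 72.2% and 34. The 4 ligand promoters with 10 CpG or fewer, both of WNT5B and those of WNT8A and WNT8B, had no summit within 1 kb, and the lowest with a summit had 18 CpG, at a start of WNT2B. Among all promoters with fewer than 10 CpG, 22.2% had a summit within 1 kb. Over all coding genes the promoters without a summit had 52.7% GC and 5 CpG, and 14.4% of them reached 20 CpG, against 63.6% of the ligand promoters without one.

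Short words were counted on both strands of the windows. The GC box GGGCGG occurred in 22 of 28 member promoters (78.6%) and in 56.3% of all. CTTTGA, the core word bound by TCF and LEF factors, occurred in none of the 28 and in 10.9% of all. CATCTG, an E-box word of the kind bound by NGN2-type factors, occurred in 2 of 28 (7.14%) and in 12.2% of all. The member windows were richer in GC, with medians of 73.3% GC and 32.5 CpG against 62.3% and 21 for all. The counts were not matched for composition, so its part in these differences was not tested. These words are matches of letters within 300 bases, and do not show what is bound there.

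Away from gene ends, both groups had a higher median number of regions than all coding genes. A distal region is one whose strongest summit is more than 1 kb from the ends of every annotated gene, and it was counted inside a gene or within 50 kb of it. Ligands had a median of 3 (range 1 to 11), receptors 4 (0 to 8) and all coding genes 2. At least 1 was present for 19 of 19 ligands and 14 of 15 receptors, against 83.6% of all genes. Counts of 5 or more occurred in 5 ligands and 7 receptors, against 20.1% of all genes. When only regions outside the gene were counted, the median was 2 for ligands, for receptors and for all coding genes. Over the members this made 126 distinct regions, of which 43 lay inside a member and 83 had a member as nearest coding gene. Their median fold enrichment was 4.79, against 5.11 for all distal regions, with 302.5 tags near ligands, 205 near receptors and 201 in all distal regions.

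WNT5B, with no accessible end, had the most distal regions of any member, 11, of which 9 lay outside the gene. A count this high occurred in 3.36% of all coding genes and in 0.208% of the 1921 with a length within 20% of that of WNT5B. The region nearest to its start, 4.68 kb upstream at chr12:1611843-1612687, had 596 tags (549 to 646) at fold enrichment 10.8, and another inside the gene had 487 tags at 9.13. Further regions upstream were nearer to FBXL14 than to WNT5B. These regions of WNT5B, and the WNT7B region given next, were chosen after their values were seen. WNT7B had 8. The one of highest fold enrichment, with 735 tags at 8.56, lay inside another coding gene, LOC105373071, 30.6 kb from WNT7B. WNT5A had 7. Among the receptors FZD3 had 8 and ROR2 had 7. When each region was counted only for its nearest coding gene, WNT5B had 5, WNT7B 4, WNT5A 3, FZD3 5 and ROR2 7. ROR1, the longest member at 407 kb, had 6, all inside the gene, and genes of its length had a median of 10.

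The 5 strongest distal regions stood near WNT3, LRP6, FZD3, WNT8B and FZD7. The region for WNT3 was at chr17:46732237-46733599, 29.6 kb beyond its far end and within the spans of NSF and LRRC37A2, with 1060 tags (997 to 1126) at fold enrichment 13.3. That of LRP6 lay inside the gene at chr12:12240701-12241401, with 467 tags (426 to 511) at 13.3. That of FZD3 was also inside its gene, 19.7 kb from the accessible end, with 1350 tags at 12.7. WNT8B, a forebrain signal with no accessible end, had a region 29.03 kb upstream at chr10:100433316-100434313, with 475 tags (433 to 520) at 12.5. FZD7 had a region 26.3 kb away at chr2:202063998-202065132, with 990 tags at 11.6, and KIAA2012 was the nearer gene. The first 4 of these exceed the fold enrichment of 70.7% or more of all regions within 1 kb of a coding end, weaker second regions of a gene included. By tags the order changes, and a region 4.01 kb beyond the far end of WNT7A, named here after its value was seen, had the most, 1512 (1437 to 1590) at 11.2. Exon and intron positions were not used here.

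**Figure D4:**
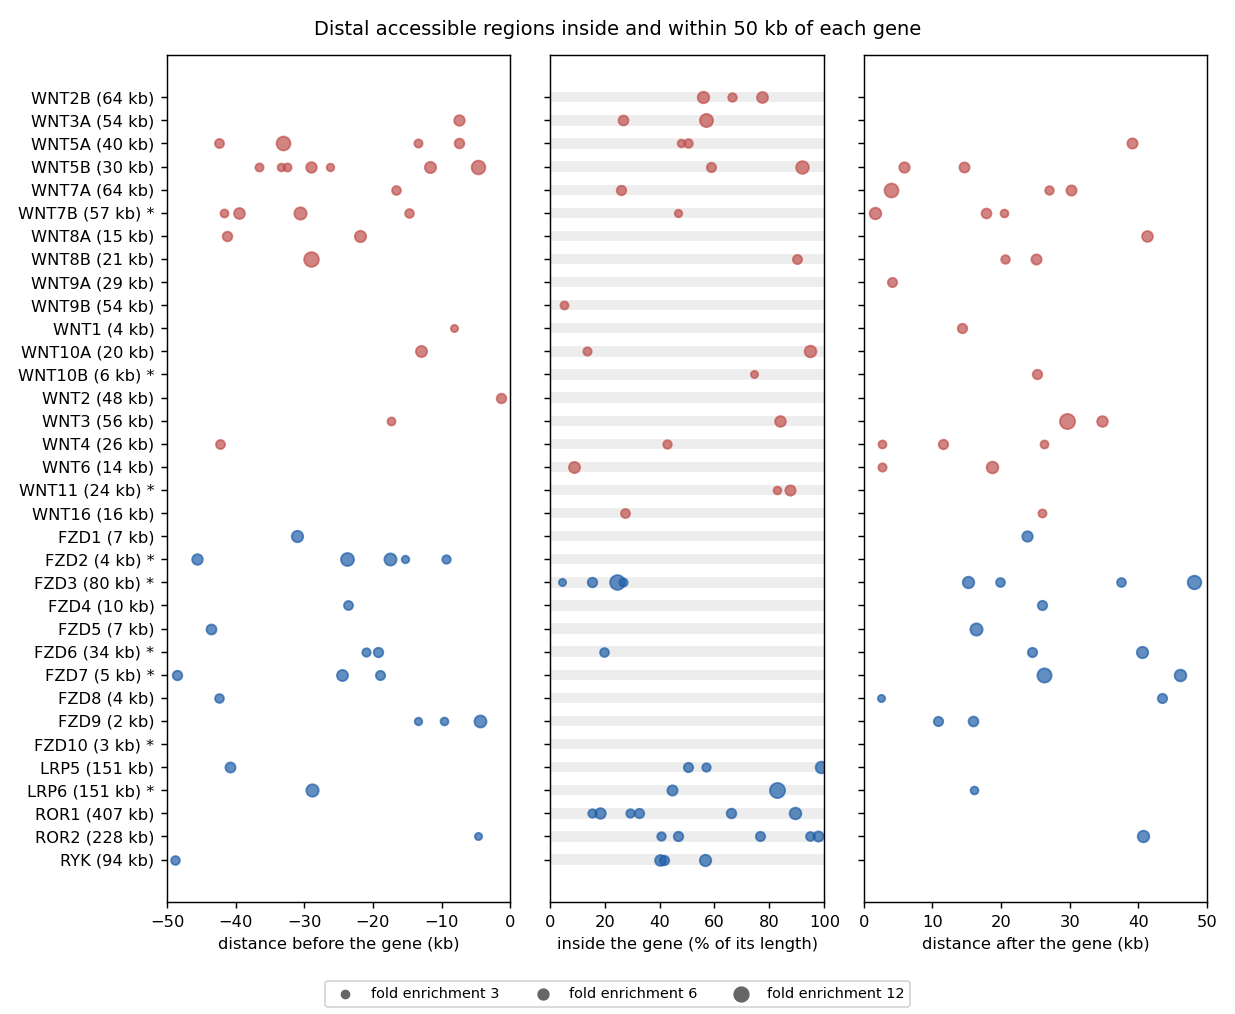
Distal regions before (left, kb), inside (middle, % of gene length) and after (right, kb) each of the 34 genes, ligands in red and receptors in blue, with point area growing with fold enrichment and gene lengths in brackets. Genes marked * have no listed strand and run from lower to higher coordinate. WNT5B has the most points, 11, and FZD10 has none.

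Per length of gene the ligands carried more regions. Regions inside the gene, at ends or distal, came to a median of 3.88 per 100 kb for ligands (0 to 46.9) and 1.47 for receptors (0 to 24.7), against 0.767 for all coding genes. At least 1 was present in 16 of 19 ligands and 8 of 15 receptors, against 51.2% of all genes. Among the Frizzled genes 3 of 10 had one, and at 8 of the 9 with an accessible end the strongest end summit lies 26 to 239 bp outside the annotated span. The highest density was that of WNT10B, with 3 regions in 6.40 kb. With 1 kb added at each end, the medians were 5.88 for ligands and 6.09 for receptors, against 3.44 for all coding genes, so the lead of the ligands rests on where the gene is taken to begin.

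Several WNT genes are neighbours and share regions. WNT6 and WNT10A shared 3 distal regions beside the one at their ends, WNT1 and WNT10B, 6.59 kb apart, shared 2, and WNT3 and WNT9B, 14.5 kb apart, shared 1. WNT9A and WNT3A, 59.1 kb apart, shared none, and the first had an accessible start while the second had none. WNT3, WNT9B and FZD2 lie on the chromosome of MAPT, the tau gene, at 734 kb, 805 kb and 1.33 Mb from it. All 3 had an accessible end, against 66.7% of all coding genes, and 3 genes are too few to describe this neighbourhood. The summit of WNT9B lay 725 bp from that end, and this gene was not counted with a window of 500 bp.

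The rest of the pathway had accessible ends more often than the ligands did. Of 68 other pathway genes, 61 had one (89.7%, 80.2 to 94.9%), against 66.7% of all coding genes. The 61 had a median fold enrichment of 7.61 and 776 tags. All 7 genes of the list for secretion and export had an accessible end. Besides PORCN and WLS it holds GPC3, GPC4, APCDD1, SULF1 and SULF2, so it is wider than WNT secretion itself. PORCN, the enzyme that attaches the lipid, had the highest fold enrichment (14.6). GPC3, a glypican, followed (10.2), and SULF1, a heparan sulfatase, had the lowest (4.18). Of the extracellular antagonists, 13 of 16 had one, led by DKK4 (12.4) and SFRP1 (9.67), with DKK3 lowest (4.05), and DKK2, NOTUM and SOST had none. In the R-spondin axis, which stabilises Frizzled receptors at the surface, the count was 7 of 9, led by the ubiquitin ligase RNF43 (14.0) and the receptor LGR4 (11.2), with RSPO1 lowest (3.05), and LGR6 and RSPO4 had none.

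Transducers, nuclear factors and planar polarity genes nearly all had an accessible end. All 15 cytoplasmic transducers did, led by CSNK1A1 (14.9) and BTRC (13.7), a kinase and a ubiquitin ligase subunit that mark β-catenin for destruction, with NKD2 lowest (4.58). CTNNB1, the gene of β-catenin, had 1151 tags at 10.4, and is named here outside the rule for its role. Of the nuclear factors, 10 of 11 had one, led by PYGO2 (10.1) and TLE1 (9.51), with LEF1 lowest (3.88), and TCF7 had none. Of the planar polarity genes, 9 of 10 had one, led by CELSR3 (12.04) and DAAM1 (10.7), with CELSR1 lowest (3.69). The exception, PRICKLE2, had an accessible listed start inside the gene. Among these lists, the lowest shares were those of the extracellular antagonists and the R-spondin axis, and both were above that of the ligands. Of the single lists, only the transducers had an interval, 79.6 to 100%, above the 66.7% of all coding genes. The intervals of the other lists include that share, with 57.0 to 93.4% for the antagonists and 45.3 to 93.7% for the R-spondin axis.

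**Figure D5:**
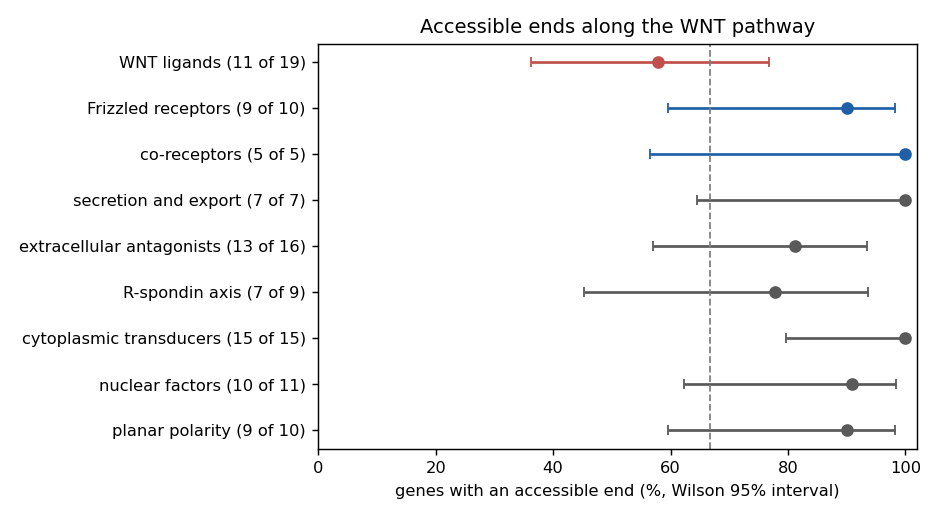
Share of genes with an accessible end (%) in each list of WNT pathway genes, with Wilson 95% intervals. From the top are ligands, Frizzled receptors, co-receptors, secretion and export, extracellular antagonists, the R-spondin axis, cytoplasmic transducers, nuclear factors and planar polarity. The dashed line is the 66.7% of all coding genes. The ligands, at 57.9%, are the 1 list whose point lies left of the line, and their interval includes it.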

How the data were processed

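The 3 biological replicates of ATAC-seq form 1 group, and the labels name 1 list of regions, the optimal set by irreproducible discovery rate, for all of them. The genome build hg38 comes from the submitters' processing notes. The aligner, the peak caller and the depth per replicate are not given in the sources used here. For each summit the authors deposited a linear fold enrichment (a ratio to local background), a −log10 p from 5.92 to 2945, a −log10 q from 4.28 to 2939, a score from 540 to 1000 of unstated scaling, and an offset from the region's start. No column of per-sample values was left unused (0).

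From these values, entries with equal bounds were merged, keeping the entry with the highest −log10 p. Tag counts were recovered by solving the ratio, with a pseudocount of 1 on tags and background, together with a Poisson upper tail. All entries gave a whole number to within 0.00079 units of −log10 p, and the next whole number missed by a median of 0.266. Gene ends came from RefSeq GRCh38.p14 with no strand. Starts and strands came from the RefSeq promoter table, matched by symbol for 25 of 34 members, 3 of them with 2 starts. All 68 pathway genes and all 28 markers matched, TDGF1 as CRIPTO.

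The members and lists were chosen with earlier results of these data known. Named are all members, the strongest region at each end, the 5 distal regions of highest fold enrichment, 2 highest and 1 lowest gene of each pathway list with up to 5 genes lacking an accessible end, and the promoters of 2 ligands and 2 receptors with the highest fold enrichment inside the window and of the 2 longest ligands with no region at an end. Other distal regions near WNT5B, WNT7A and WNT7B, and the gene CTNNB1, are named outside this rule. For the last pair of promoters WNT7B, with no promoter entry, and WNT2 and WNT5A, with a region over a listed start, were passed over. No test was made, because there is 1 list and genes are not replicates. The code was tested on simulated data. Computations used Python 3.11.15, numpy 2.4.6, scipy 1.17.1, pandas 2.3.3 and matplotlib 3.10.9. Alternatives were other windows at gene ends, listed starts only, stricter scores, overlap in place of the summit, regions above the median fold enrichment, other distal definitions and every summit entry. The last was applied to gene ends after the data had been seen.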

Additional observations from a re-analysis of the deposited data

How the results depend on the processing

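Of 51 alternative values of the shares, differences and medians, 34 stayed inside the interval of a share or within 1.5 times of a difference or median, 17 moved further and 0 reversed. Only the ligand minus receptor difference could change sign, so the 0 says nothing of the other values. The comparison of density between ligands and receptors was not among the 51. The ligand share minus the receptor share, -35.4 percentage points, was -56.5 with a window of 500 bp and also with only scores of 1000, -58.9 with only regions above the median fold enrichment, and -56.3 at listed starts. It was -24.9 with a 2 kb window, with overlap of 1 bp and with every summit, where WNT2 and WNT7B were added. The value at listed starts leaves out the members without an entry, among them FZD10, the 1 receptor without an accessible end. With only regions above the median fold enrichment the share of all members fell to 47.1%, against 56.4% of all coding genes. The windows and scores that changed a call changed ligands: 500 bp removed WNT6, WNT7A, WNT9B and WNT10A, and a score of 1000 removed WNT6, WNT10A, WNT10B and WNT11. FZD3 and FZD9 were removed as well by the limit at the median fold enrichment.

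The median of distal regions became 6 for ligands and 10 for receptors with every summit entry (4 for all coding genes), and for receptors it was 2 outside the gene only and 2 above the median fold enrichment. The median per 100 kb of gene was, for ligands and receptors, 6.35 and 6.25 with overlap of 1 bp, 5.88 and 6.09 with 1 kb added at each end, 10.2 and 11.2 with every summit entry, and 0 and 0 above the median fold enrichment. The higher density of ligands thus turned to the receptors' side in 2 of these settings.

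No paired analysis was possible because the 3 replicates form 1 group and share 1 list. No replicate could be left out for the same reason. Depth per replicate is unknown, and 7 of the 11 ligand end regions had under 300 tags.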
